A study of Mus musculus with 6 samples.

Results

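The choroid plexus genes described here are Ttr, Kl, Folr1, Clic6, Otx2, Prlr, F5, Aqp1 and Enpp2, 9 of the 33084 genes counted, chosen by name as genes of the choroid plexus epithelium and matched by symbol to their Ensembl identifiers. They were measured by bulk RNA sequencing in forebrain of mouse embryos at embryonic day 15.5. The 3 heterozygotes carried 1 inactivated copy of Dyrk1a (Dyrk1a+/-), and the 3 controls were wt, 3 biological replicates of each by the labels. Dyrk1a codes for a protein kinase whose dose sets brain size. The labels do not describe the deleted part of the gene, the strain, the sex or whether embryos were pooled, so p-values measure the spread between these samples.

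The choroid plexus is a fold of secretory epithelium around fenestrated capillaries that hangs into the brain ventricles. Its cells make cerebrospinal fluid, form the barrier between that fluid and the blood, and release carrier proteins and growth factors into it. In the forebrain it arises from the dorsal midline, next to the cortical hem. Dissected forebrain can hold varying amounts of it, and in bulk RNA fewer choroid plexus cells and less RNA per cell cannot be told apart.

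Heterozygote libraries held 18699434 to 25012356 counts and wt libraries 25270710 to 32865708, so all heterozygotes were sequenced less deeply than all wt samples. The part of this depth difference in the results below was not tested. Levels are given in CPM, the counts of a gene scaled to its library's effective total. Principal component 1 (34.9% of the variance) separated 2 libraries, heterozygote replicate 2 and wt replicate 3, from the 4 others; they are called the pair below. Dyrk1a itself averaged 151 ± 6.28 CPM in heterozygotes and 174 ± 12.9 CPM in wt (SD, n = 3 each, edgeR adjusted p = 0.59). It was at 149, 147 and 158 CPM in heterozygotes, against 177, 186 and 160 CPM in wt. All heterozygotes were below all wt libraries, as in 7.49% of all genes tested. Its fitted level was 0.868 of that in wt (95% interval 0.766 to 0.984), and the genotype is taken from the labels. The 8 telencephalic genes tested summed to 506 to 554 CPM in heterozygotes and 527 to 578 CPM in wt, and 6 hindbrain genes, of which Hoxb2 had no count in any library, summed to 0.443 to 0.694 CPM in heterozygotes and 0.61 to 1.07 CPM in wt.

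None of the 9 genes differed between the genotypes at an adjusted p under 0.05 by edgeR's quasi-likelihood test (adjusted p 0.586 to 0.977). Of all 19403 genes tested, 2 passed, or 0.0103%. All 9 passed the filter on low counts; 7 had lower and 2 higher fitted levels in heterozygotes, with a median log2 fold change of -0.066 beside 0.0048 over all genes tested. At an unadjusted p under 0.05 were F5 and Prlr, both lower in heterozygotes, where 4.61% of all genes tested were lower and 7.88% were past this threshold in either direction. The number of the 9 genes past this threshold was 0 without wt replicate 2 or heterozygote replicate 3. It was 1 without wt replicate 1 (F5), without wt replicate 3 (Prlr) or without heterozygote replicate 2 (Aqp1, with neither F5 nor Prlr). In none of the 9 genes were the CPM ranges of the genotypes apart, against 14% of all genes tested.

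**Figure D1:**
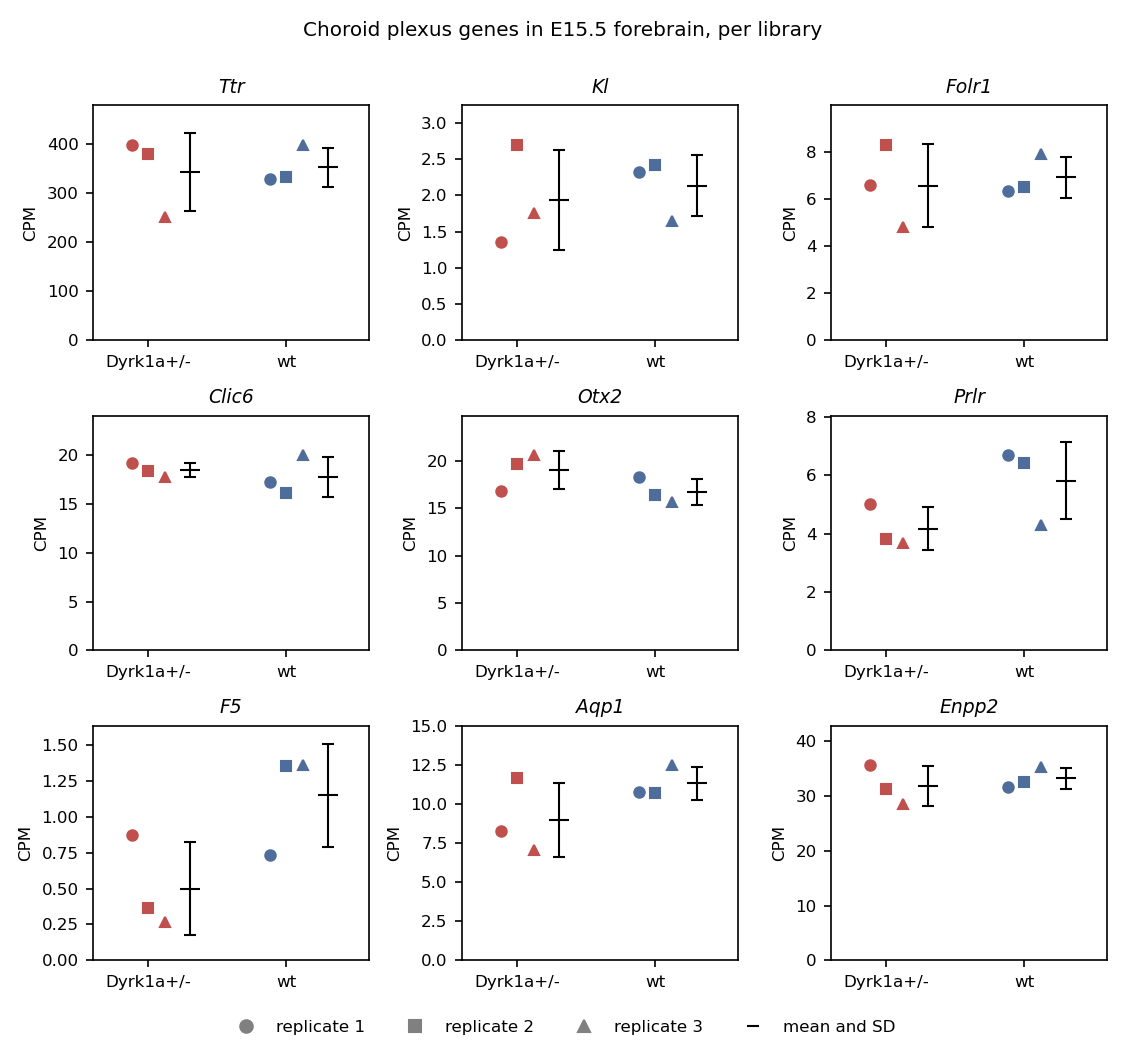
CPM of the 9 genes in each library, with heterozygotes left of wt, a symbol for each replicate number, and the mean with its SD (n = 3) beside the points. The 2 genotypes overlap in each panel; F5, Prlr, Aqp1 and Enpp2 have 2 heterozygotes below all wt libraries, and Otx2 has 2 above them.

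Ttr encodes transthyretin, the carrier of thyroxine and, with retinol-binding protein, of retinol that the choroid plexus epithelium secretes in large amounts. It lies on GRCm38 chromosome 18, 20665280 to 20674321 (ENSMUSG00000061808). Ttr was at 398, 379 and 252 CPM in heterozygotes, against 327, 332 and 398 CPM in wt. Heterozygote replicate 3 was the lowest of the 6 libraries, and the other 2 heterozygotes were within the wt range. On the log2 scale the difference was -0.040 with an SE of 0.163 (edgeR adjusted p = 0.977), and its 95% interval of -0.41 to 0.33 spans 0.753 to 1.26 of the wt level. Its sign turned without heterozygote replicate 3 (0.14) or wt replicate 3 (0.057).

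Carriers and membrane transport proteins gave mixed values. Folr1, the folate receptor alpha that takes folate from blood into cerebrospinal fluid (ENSMUSG00000001827, chromosome 7, 101858331 to 101870788), was at 6.57, 8.29 and 4.80 CPM in heterozygotes, against 6.32, 6.50 and 7.88 CPM in wt. As in Ttr, heterozygote replicate 3 was lowest; the highest library was another heterozygote. The log2 fold change was -0.066 (SE 0.200; edgeR adjusted p = 0.969), and it was 0.11 without heterozygote replicate 3 and 0.041 without wt replicate 3. The exons of Anapc15 on the opposite strand do not overlap those of Folr1. Clic6, of the chloride intracellular channel family (ENSMUSG00000022949), was at 19.2, 18.4 and 17.8 CPM in heterozygotes, against 17.2, 16.1 and 20.1 CPM in wt. All heterozygotes lay inside the wt range. The log2 difference of 0.053 had an SE of 0.110 and a 95% interval of -0.20 to 0.30 (edgeR adjusted p = 0.949), and it was -0.016 without wt replicate 2. Clic6 is on chromosome 16 (92485736 to 92541243), 2.03 Mb from Dyrk1a.

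Aqp1, the water channel of the apical membrane of the epithelium (ENSMUSG00000004655, chromosome 6, 55336432 to 55348555), was at 8.26, 11.6 and 7.04 CPM in heterozygotes, against 10.7, 10.7 and 12.5 CPM in wt. Heterozygote replicates 1 and 3 were below all wt libraries, and replicate 2 was within their range. The means were 8.98 ± 2.38 CPM in heterozygotes and 11.3 ± 1.04 CPM in wt (SD, n = 3 each), with a log2 fold change of -0.33 (SE 0.183, 95% interval -0.74 to 0.090; edgeR adjusted p = 0.719). Heterozygote minus wt in log2 CPM was -0.10 in the pair and -0.49 in the 4 others. Leaving out heterozygote replicate 2 gave -0.56 and leaving out heterozygote replicate 3 gave -0.18. On the 4 other libraries alone, a subset taken after the data were seen, the log2 fold change was -0.48 (edgeR, unadjusted p = 0.00903, adjusted p = 0.267). In that fit 2492 genes were at an unadjusted p under 0.05. On all 6 libraries the unadjusted p of Aqp1 was 0.11 by edgeR.

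Receptors of hormones were the next group. Prlr, the prolactin receptor (ENSMUSG00000005268, chromosome 15, 10177238 to 10349180), was at 5.02, 3.82 and 3.68 CPM in heterozygotes, against 6.71, 6.43 and 4.30 CPM in wt. Replicates 2 and 3 of the heterozygotes were below all wt libraries, while replicate 1 was above wt replicate 3. Prlr averaged 4.18 ± 0.737 CPM in heterozygotes and 5.81 ± 1.32 CPM in wt (SD, n = 3 each), with a log2 fold change of -0.48 (SE 0.209, 95% interval -0.95 to -0.0045; edgeR, unadjusted p = 0.0483, adjusted p = 0.63). By exact permutation of CPM, 2-sided, p was 0.2, where 3 against 3 libraries cannot go below 0.1. Heterozygote minus wt in log2 CPM was -0.17 in the pair and -0.61 in the 4 others. Gm21973, a protein-coding gene on the same strand, overlaps the exons of Prlr and is not among the genes counted. How the counting treated reads shared by these genes is not known. Kl (ENSMUSG00000058488, chromosome 5, 150952607 to 150993817) encodes klotho, the co-receptor for the hormone FGF23 and a protein also released into cerebrospinal fluid. Kl was at 1.35, 2.70 and 1.76 CPM in heterozygotes, against 2.32, 2.42 and 1.65 CPM in wt. Both the highest and the lowest library were heterozygotes. The fitted log2 difference was -0.12 (SE 0.284, 95% interval -0.77 to 0.52; edgeR adjusted p = 0.955), and that of log2 CPM was 0.71 in the pair and -0.62 in the 4 others. The fitted value was -0.45 when heterozygote replicate 2 was left out and 0.079 when replicate 1 was.

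The enzyme and the clotting factor among the 9 differed in depth. Enpp2 (ENSMUSG00000022425, chromosome 15, 54838901 to 54952892) encodes autotaxin, the secreted lysophospholipase D that makes lysophosphatidic acid. It was at 35.7, 31.3 and 28.5 CPM in heterozygotes, against 31.7, 32.6 and 35.4 CPM in wt. The highest and the lowest library were again heterozygotes. Enpp2 had a log2 difference of -0.060 with an SE of 0.101 and a 95% interval of -0.29 to 0.17 (edgeR adjusted p = 0.937), and 0.011 without heterozygote replicate 3. F5 (ENSMUSG00000026579, chromosome 1, 164151838 to 164220277) encodes coagulation factor V, the cofactor of the enzyme that cuts prothrombin. F5 had 18, 9 and 5 counts in heterozygotes, against 24, 34 and 38 counts in wt. Scaled to depth these were 0.869, 0.362 and 0.267 CPM in heterozygotes and 0.732, 1.35 and 1.36 CPM in wt, so that heterozygote replicate 1 was above wt replicate 1. F5 averaged 0.499 ± 0.324 CPM in heterozygotes and 1.15 ± 0.359 CPM in wt (SD, n = 3 each), with a log2 fold change of -1.18 (SE 0.451, 95% interval -2.20 to -0.16; edgeR, unadjusted p = 0.0282, adjusted p = 0.586). By exact permutation of CPM, 2-sided, p was 0.2. The interval spans 0.217 to 0.896 of the wt level, and on the log2 scale it was the widest of the 9. The fold change was -1.82 without heterozygote replicate 1 and -0.91 without heterozygote replicate 3. Heterozygote minus wt in log2 CPM was -1.91 in the pair and -1.05 in the 4 others. Fitted on the 4 others alone, the log2 fold change of F5 was -0.81 (edgeR, unadjusted p = 0.171). A processed pseudogene in an intron of F5 on the same strand, Gm16588, had 109 counts over all libraries beside 128 for F5, and how the counting treated shared reads is not known.

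Otx2, the homeodomain transcription factor needed to form and keep the choroid plexus, also marks parts of the diencephalon and midbrain (ENSMUSG00000021848, chromosome 14, 48657677 to 48673819). It was at 16.8, 19.6 and 20.6 CPM in heterozygotes, against 18.3, 16.3 and 15.6 CPM in wt. Replicates 2 and 3 of the heterozygotes were above all wt libraries, and replicate 1 was within their range. The difference of 0.18 on the log2 scale had an SE of 0.116 and a 95% interval of -0.080 to 0.44 (edgeR adjusted p = 0.75). Heterozygote minus wt in log2 CPM was 0.33 in the pair and 0.11 in the 4 others, and the fitted value was 0.12 without heterozygote replicate 3. A non-coding gene on the opposite strand, Otx2os1, overlaps its exons and had 202 counts over all libraries beside 2669 for Otx2. Gm49154 on the same strand also overlaps the exons of Otx2 and is not among the genes counted. The library kit keeps strand, but the strand setting of the counting is not given in the sources used here.

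**Figure D2:**
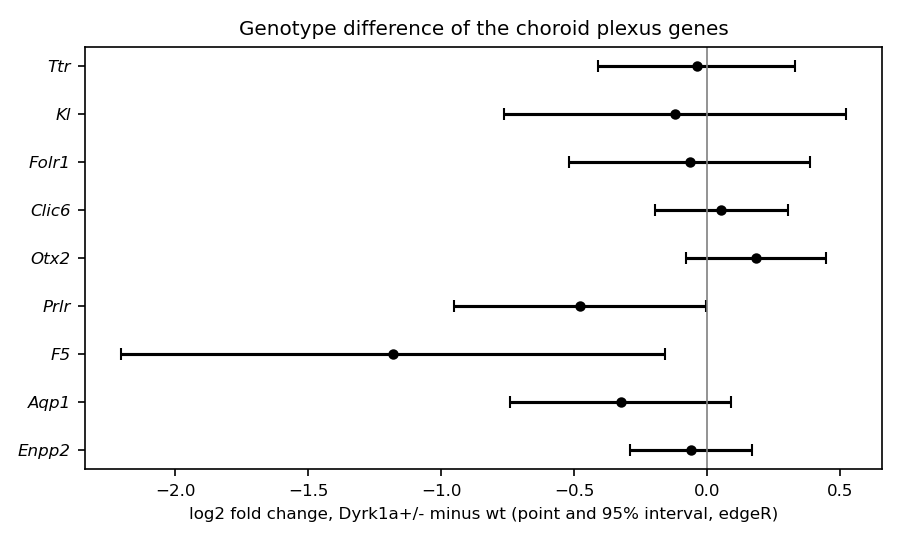
Log2 fold change, heterozygotes minus wt, of each of the 9 genes by edgeR, with the 95% interval as a bar. Intervals of F5 and Prlr end below 0, at -0.16 and -0.0045, before any adjustment for the number of genes tested.

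Levels of different genes were set side by side as CPM per kilobase of annotated exon. Ttr was far above the rest, at 289 ± 67.1 CPM per kilobase in heterozygotes and 297 ± 33.4 in wt (SD, n = 3 each). Enpp2 followed at 5.51 ± 0.629 in heterozygotes and 5.75 ± 0.332 in wt, then Clic6 at 4.72 ± 0.181 and 4.55 ± 0.52 CPM per kilobase. Otx2 was at 4.51 ± 0.478 in heterozygotes and 3.97 ± 0.326 in wt, Aqp1 at 3.42 ± 0.905 and 4.30 ± 0.395, and Folr1 at 2.85 ± 0.76 and 3.00 ± 0.372 CPM per kilobase. In heterozygotes Clic6, Otx2, Aqp1 and Folr1 overlapped each with its neighbour in this order; in wt Clic6 overlapped with Aqp1, and Aqp1 with Otx2. Below a gap came Prlr (0.272 ± 0.0481 in heterozygotes, 0.379 ± 0.086 in wt), Kl (0.208 ± 0.0739 and 0.228 ± 0.045) and F5 (0.0672 ± 0.0436 and 0.154 ± 0.0484 CPM per kilobase). Prlr and Kl overlapped in heterozygotes, and Kl and F5 in wt. The exons of all annotated transcripts were joined for the length, which lowers the value of genes with long rare exons, such as Prlr with 15339 bases.

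Promoter windows of the 4 genes with the lowest unadjusted p among the 9 (F5, Prlr, Aqp1 and Otx2) show the sequence around a start of each. They are RefSeq windows of build GRCm38.p6, 250 bases before to 50 bases after an annotated start, written along the strand of the gene. The window of F5 is chr1:164151585-164151884 on the plus strand, that of Prlr chr15:10223656-10223955 on the plus strand, that of Aqp1 chr6:55336049-55336348 on the plus strand, and that of Otx2 chr14:48665060-48665359 on the minus strand. Prlr has 3 and Otx2 has 4 such windows, of which the one with the most motif matches is shown; the other Prlr windows hold none and the other Otx2 windows hold 1, 0 and 0. Counts per gene do not say which start was used. Capitals mark matches, on either strand, to TAATCC (the motif that OTX2 and related homeodomain proteins bind), TAATTA (a general homeodomain motif, the same on both strands), TGTTTAC (a forkhead motif) and CCGCCC (the GC box). No match overlaps another.
F5: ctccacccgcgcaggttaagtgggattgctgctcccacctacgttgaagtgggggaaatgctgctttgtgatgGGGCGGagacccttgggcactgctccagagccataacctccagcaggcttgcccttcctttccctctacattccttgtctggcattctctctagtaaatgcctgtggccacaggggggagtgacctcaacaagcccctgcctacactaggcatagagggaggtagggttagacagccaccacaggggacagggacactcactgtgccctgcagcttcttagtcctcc
Prlr: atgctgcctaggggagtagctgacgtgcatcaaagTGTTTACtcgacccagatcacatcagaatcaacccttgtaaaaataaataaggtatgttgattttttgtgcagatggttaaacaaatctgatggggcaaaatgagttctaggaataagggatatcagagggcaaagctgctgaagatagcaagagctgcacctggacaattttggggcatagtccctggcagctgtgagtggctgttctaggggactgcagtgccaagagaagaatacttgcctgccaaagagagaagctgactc
Aqp1: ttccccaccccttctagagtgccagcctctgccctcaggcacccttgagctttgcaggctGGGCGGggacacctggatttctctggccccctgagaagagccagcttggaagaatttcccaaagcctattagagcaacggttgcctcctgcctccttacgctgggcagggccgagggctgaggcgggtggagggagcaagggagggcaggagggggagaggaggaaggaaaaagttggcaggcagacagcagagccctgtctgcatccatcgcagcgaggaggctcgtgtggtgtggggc
Otx2: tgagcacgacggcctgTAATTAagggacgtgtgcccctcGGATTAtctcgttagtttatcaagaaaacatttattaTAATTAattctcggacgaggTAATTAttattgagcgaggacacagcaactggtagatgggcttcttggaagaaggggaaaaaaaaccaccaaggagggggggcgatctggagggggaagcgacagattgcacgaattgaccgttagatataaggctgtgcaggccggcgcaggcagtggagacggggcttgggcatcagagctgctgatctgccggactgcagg
In the Otx2 window TAATCC lies in reverse complement, starting 211 bases before the annotated start, and TAATTA stands 234, 174 and 154 bases before it. The Prlr window holds TGTTTAC 215 bases before its start, and F5 and Aqp1 hold CCGCCC in reverse complement, 177 and 190 bases before theirs. Of all 32851 promoter windows of this length, 7.06% hold TAATCC, 5.29% TAATTA, 3.65% TGTTTAC and 35.7% CCGCCC. Windows were found for 5 of the 9 genes, 10 in all, and among these TAATCC was in 1, TAATTA in 2, TGTTTAC in 1 and CCGCCC in 3. The motifs were picked after a wider search of the same windows, so the matches are a description only.

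Across the 6 libraries the genes varied to very different degrees. Clic6 and Enpp2 were the steadiest, with coefficients of variation of 7.78% and 8.30%, beside 4.70% and 3.50% that counting alone would give. Otx2 varied by 11.1%, Ttr by 16.2%, Folr1 by 18.5% and Aqp1 by 20.5%. Kl (25.6%), Prlr (26.2%) and F5 (56.9%) were more variable, where counting alone would give 13.9%, 8.83% and 21.7%. For Ttr counting error was 1.07%, beside a 1.58-fold range between libraries.

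Heterozygote replicate 3 had the lowest level of the 6 libraries in 6 of the 9 genes, and wt replicate 3 the highest in 4. The shares of all genes lowest or highest in these libraries were not computed. Heterozygote replicate 3 also had the fewest counts of the 6 libraries (18699434). As multiples of the median over libraries, heterozygote replicate 3 was at 0.708 for Ttr, 0.734 for Folr1, 0.658 for Aqp1, 0.333 for F5, 0.79 for Prlr and 0.888 for Enpp2. It was at 0.985 for Clic6 and 0.863 for Kl, and at 1.18, the highest of all libraries, for Otx2. Over the 9 genes the median multiple was 1.06, 1.07 and 0.79 in the heterozygotes and 0.987, 0.997 and 1.11 in wt. Without this library the log2 differences of the genes not yet given so were -0.40 for Prlr, 0.12 for Otx2, -0.058 for Kl and 0.076 for Clic6.

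**Figure D3:**
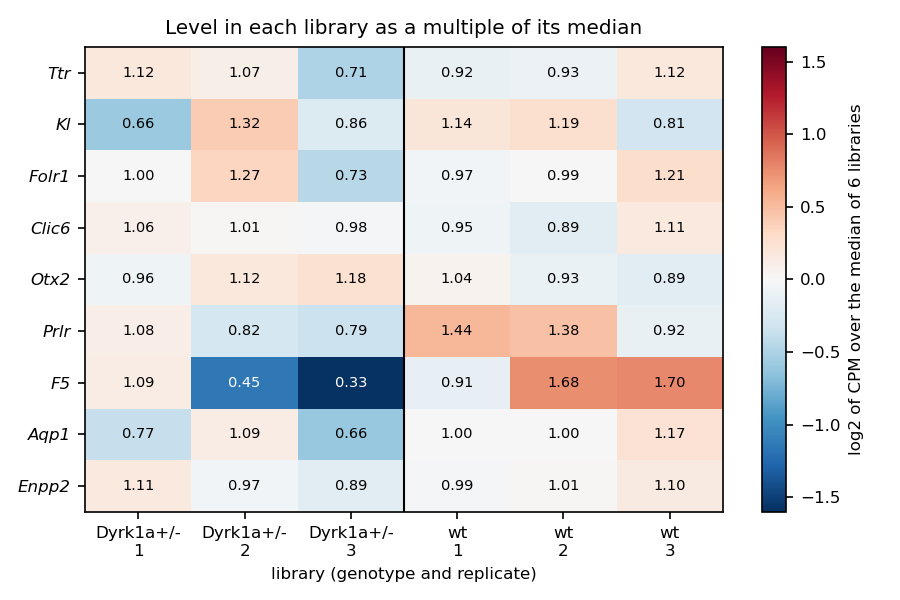
CPM of each gene in each library as a multiple of its median over the 6 libraries, written in the cells and coloured on a log2 scale, with heterozygotes left of the line and wt right of it. Heterozygote replicate 3 is low for most genes, with 0.33 for F5 and 0.66 for Aqp1, and high for Otx2, at 1.18.

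Because the amount of choroid plexus may differ between dissections, the other 8 genes were also set against Ttr of the same library, a scale chosen after the data were seen. Folr1 kept a narrow ratio in wt, at 19.3, 19.6 and 19.8 CPM per 1000 CPM of Ttr, and was at 16.5, 21.9 and 19.1 in heterozygotes. Aqp1 was at 20.8, 30.7 and 28 per 1000 in heterozygotes, against 32.8, 32.1 and 31.4 in wt, so that the genotypes did not overlap. F5 was at 2.19, 0.956 and 1.06 per 1000 in heterozygotes, against 2.24, 4.06 and 3.42 in wt, and did not overlap either, with 2.19 and 2.24 in the nearest libraries. For Aqp1 and for F5 the exact 2-sided permutation p was 0.1, the smallest that the design allows. These were 2 of 8 genes, both lower in heterozygotes. Of all genes tested, 2.12% were lower without overlap on this scale and 3.79% in either direction, beside 7.49% and 14% in plain CPM. Division by Ttr adds the spread of Ttr to genes that do not vary with it, which can lower these shares. Whether it did so here was not tested. The 2 of 8 can therefore not be weighed against these shares, and in plain CPM none of the 9 genes was apart. Prlr was at 12.5 ± 2.28 per 1000 in heterozygotes and 16.9 ± 5.31 in wt (SD, n = 3 each; exact permutation p = 0.3). Otx2 was at 42.1, 51.8 and 82.1 per 1000 in heterozygotes, against 55.8, 49.2 and 39.2 in wt, and Clic6 at 48.3, 48.4 and 70.8 against 52.7, 48.5 and 50.4. In both, heterozygote replicate 3 stood highest. Enpp2 was at 95.3 ± 16.1 in heterozygotes and 94.6 ± 5.02 in wt, and Kl at 5.84 ± 2.11 and 6.17 ± 1.76 per 1000 (SD, n = 3 each). A ratio of this kind shows unequal levels of 2 genes and not which of them differs.

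**Figure D4:**
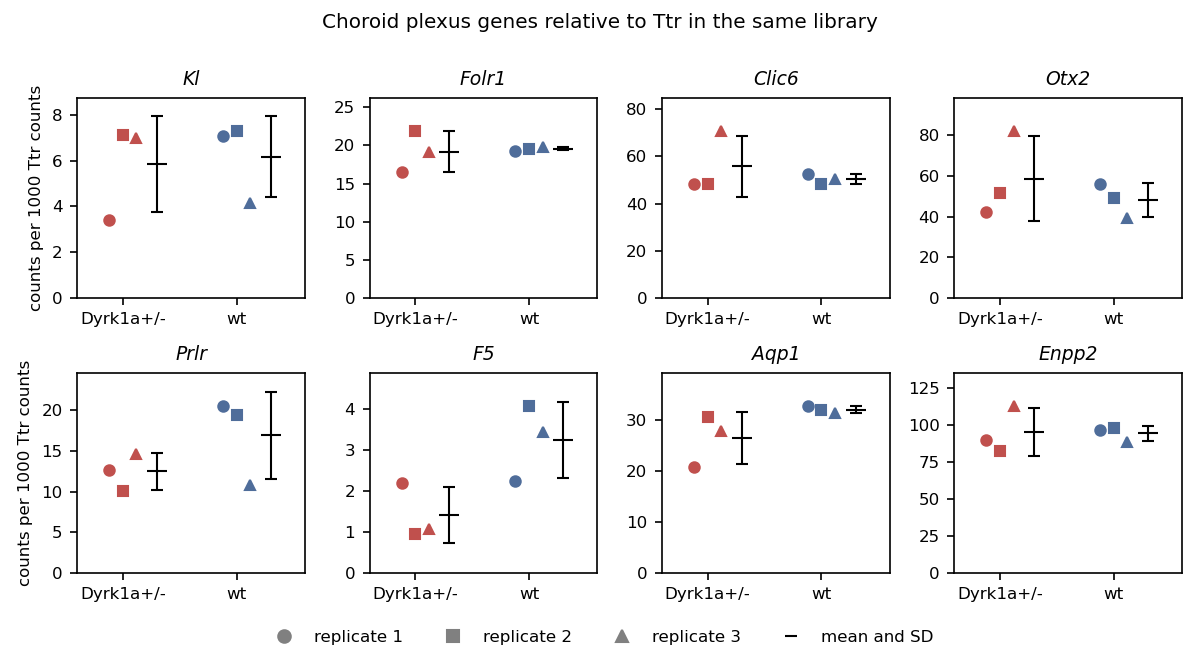
CPM of the other 8 genes per 1000 CPM of Ttr in the same library (a ratio of counts), heterozygotes left of wt, with the mean and SD (n = 3) beside the points. The 3 wt libraries lie between 31.4 and 32.8 for Aqp1, above the heterozygotes at 20.8 to 30.7.

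Other genes of the choroid plexus were taken from 5 lists of 60 genes, of which 57 were tested. The lists were put together with earlier results of these data known, so their shares beside those of all genes are a description only. By edgeR 0 passed at an adjusted p under 0.05; 38 had lower and 19 higher fitted levels in heterozygotes, beside 48.8% lower and 51.2% higher of all genes tested. The median log2 fold change was -0.086. At an unadjusted p under 0.05, 5 were lower (8.77%, against 4.61% of all genes tested) and 2 higher (3.51%, against 3.27%). CPM ranges were apart, with heterozygotes lower, in 8 of the 57 (7.49% of all genes tested) and with heterozygotes higher in 3 (6.53% of all genes tested). Several of these genes are also expressed by neurons, progenitors, meninges or vessels.

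Of 12 genes of ion and water transport, 7 were lower and 5 higher, with a median of -0.075. The lowest p values were those of the bicarbonate transporter Slc4a10 (42.2 ± 2.9 CPM in heterozygotes and 53.0 ± 6.07 CPM in wt; log2 fold change -0.33) and of the cation channel Trpm3 (84.0 ± 6.57 and 99.9 ± 7.05 CPM; -0.25) (SD, n = 3 each; edgeR adjusted p 0.517 and 0.534). Kcne2, a potassium channel subunit highly enriched in the epithelium, was at 6.84 ± 0.666 CPM in heterozygotes and 7.39 ± 0.971 CPM in wt (log2 fold change -0.11). Of 11 tested solute carriers and junction genes, 10 were lower, with a median of -0.25; the tight junction gene Cldn1 had 3.37 ± 0.448 CPM in heterozygotes and 4.87 ± 0.448 CPM in wt (-0.54; edgeR adjusted p = 0.512). The thyroxine transporter Slco1c1, which brain vessels also express, was at 15.2 ± 3.82 CPM in heterozygotes and 19.5 ± 1.45 CPM in wt (-0.36).

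Of 11 tested genes of secreted and matrix proteins, 10 were lower, with a median of -0.24. Igf2, a growth factor that the choroid plexus releases and that meninges and vessels also make, was at 79.3, 77.5 and 78.7 CPM in heterozygotes, against 104, 84.9 and 103 CPM in wt (log2 fold change -0.31; edgeR adjusted p = 0.503). All heterozygotes were below all wt libraries for Igf2. Ace, the angiotensin-converting enzyme, was at 8.92 ± 0.849 CPM in heterozygotes and 11.0 ± 1.09 CPM in wt (-0.30; edgeR adjusted p = 0.629). The other epithelial genes had 7 of 12 lower and a median of -0.036, with the lowest p in Vat1l (-0.15) and the cadherin Cdh3 (-0.24). The summed level of that list rests mostly on Tmem72, a membrane protein gene, at 704 ± 35.2 CPM in heterozygotes and 712 ± 47.1 CPM in wt (SD, n = 3 each). Whether all of its counts come from Tmem72 mRNA was not tested, so the sum of the list carries the same limit.

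Regulators of choroid plexus and multiciliated cell fate had 7 of 11 higher and a median of 0.043. Gmnc, a regulator of multiciliated cells, was at 4.15, 3.06 and 2.83 CPM in heterozygotes, against 2.59, 2.30 and 1.43 CPM in wt (log2 fold change 0.66; edgeR adjusted p = 0.59), with no overlap. The ciliary transcription factor Rfx2 was at 5.72 ± 0.379 CPM in heterozygotes and 4.47 ± 0.675 CPM in wt (0.35; edgeR adjusted p = 0.632). Lmx1a, the roof plate and cortical hem factor, was at 10.1 ± 0.58 CPM in heterozygotes and 8.47 ± 0.764 CPM in wt (0.26; SD, n = 3 each; edgeR adjusted p = 0.659). Of 8 tested genes of ciliated ependymal cells, 7 were lower, with a median of -0.095 and the lowest p in Cfap126 (-0.23) and Tekt1 (-0.15).

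Partners of the 9 genes in their pathways did not pass the test either (edgeR, 0 at an adjusted p under 0.05 in each list). For Ttr, 5 of 6 tested thyroid hormone and retinol genes were lower (median -0.19): the deiodinase Dio2, which activates thyroxine, was at 1.87 ± 0.153 CPM in heterozygotes and 4.37 ± 0.235 CPM in wt (log2 fold change -1.22; edgeR adjusted p = 0.189). For Folr1, the folate transporters Slc46a1 and Slc19a1 were at 6.44 ± 0.276 and 23.2 ± 1.84 CPM in heterozygotes and 7.44 ± 0.446 and 25.5 ± 2.02 CPM in wt. Of 10 folate pathway genes 6 were higher (median 0.040), with the lowest p in Tyms (0.28), the thymidylate synthase that dividing cells use. For Kl, 4 of 5 tested partners were higher (median 0.092), and Fgfr3 and Fgfr2 had 0.29 and 0.098; Fgf23 itself did not pass the filter. For Prlr, 3 of 7 signalling genes were higher (median -0.0029), with Socs3, a brake on cytokine signalling, at 0.42 and the transcription factor Stat5a at -0.33. For F5, 6 of 8 tested clotting genes were lower (median -0.23), with the lowest p in the anticoagulants Thbd (7.78 ± 1.64 CPM in heterozygotes and 11.2 ± 1.12 CPM in wt; -0.52) and Tfpi (-0.34).

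For Aqp1, 2 of 3 tested aquaporins were lower. Aqp4, the water channel of astrocytes, was at 1.06, 0.845 and 0.854 CPM in heterozygotes, against 2.01, 1.94 and 1.79 CPM in wt (log2 fold change -1.06; edgeR adjusted p = 0.483), with no overlap, and Aqp11 had -0.19. For Enpp2, 4 of 9 tested lysophosphatidate genes were higher (median -0.027), with the receptors Lpar6 at 0.41 and Lpar1 at -0.18. Of 3 tested relatives of Clic6, Clic4 had 0.20 and Clic1 0.093. Of the relatives of Otx2, Otx1, a factor of cortical progenitors, was at 12.2 ± 2.29 CPM in heterozygotes and 9.44 ± 0.327 CPM in wt (SD, n = 3 each; 0.36; edgeR adjusted p = 0.606), and the pineal and photoreceptor factor Crx had -0.11.

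**Figure D5:**
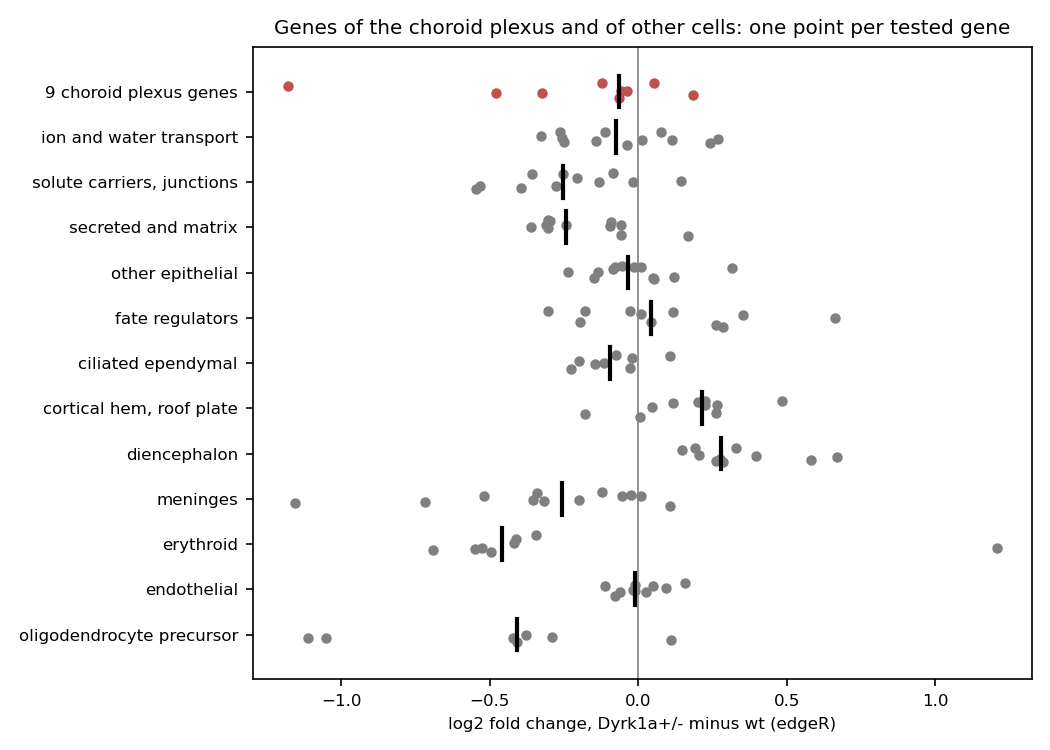
Log2 fold change, heterozygotes minus wt (edgeR), of each tested gene of the lists; the top row, in red, holds the 9 choroid plexus genes and each black line is a list's median. The medians run from -0.46 in the erythroid list to 0.28 in the diencephalic list, and the 9 genes have a median of -0.066.

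Some of the 9 genes are also expressed by other cells of the dissected tissue, whose markers were also measured. Red cells and some endothelia carry Aqp1. Of 8 tested erythroid genes 7 were lower in heterozygotes (median log2 fold change -0.46), and their summed level was 503 to 722 CPM in heterozygotes and 742 to 945 CPM in wt, while 10 endothelial genes summed to 296 to 331 CPM and 295 to 341 CPM. The lowest p in the erythroid list was in Hbb-bt (-0.55) and Alas2 (-0.53), where Hbb-bt shares reads with its near copy Hbb-bs, and in the endothelial list in Tie1 (-0.11) and Slco1a4 (0.16). Oligodendrocyte lineage cells make Enpp2: 6 of 7 genes of their precursors were lower (median -0.41), with Pdgfra at -0.38 and Sox10 at -1.05, and sums of 81.1 to 103 CPM in heterozygotes and 117 to 122 CPM in wt. Of 12 meningeal genes 10 were lower (median -0.26), summing to 228 to 268 CPM in heterozygotes and 296 to 332 CPM in wt. Ptgds, the prostaglandin D synthase of meninges and choroid plexus, passed edgeR's test in that list (-1.16; adjusted p = 0.0238), and Col1a2 was next (-0.32). The call of Ptgds was lost when heterozygote replicate 1 or 3, or wt replicate 1 or 2, was left out, where 0 genes passed (edgeR; 812 to 1584 at an unadjusted p under 0.05).

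Diencephalic cells express Otx2. All 10 diencephalic genes tested were higher in heterozygotes (median 0.28), with sums of 173 to 257 CPM in heterozygotes and 159 to 189 CPM in wt; Barhl2 had 0.58 and Irx1 0.40. Of 8 telencephalic genes 5 were higher (median 0.027), with Emx2, a factor of cortical progenitors, at 0.31. Retinal pigment epithelium expresses Ttr and Otx2: of its 5 tested genes 3 were lower (median -0.029), and Rlbp1 (-0.14) and Best1 (-0.88) had the lowest p. Most of the list's summed level was Rlbp1, at 41.6 ± 5.49 CPM in heterozygotes and 45.8 ± 4.43 CPM in wt (SD, n = 3 each). Whether Rlbp1 reads came from this epithelium was not tested. The pigment enzyme gene Tyr was at 3.08 ± 1.15 CPM in heterozygotes and 2.57 ± 0.489 CPM in wt. The genes Tyrp1, Pmel and Mlana did not pass the filter. Of 3 tested pineal and photoreceptor genes none was higher (median -0.29), with Tph1, an enzyme of serotonin synthesis, at -0.70. The part of any of these cells in the values of Aqp1, Enpp2, Otx2 or Ttr was not tested.

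Genes whose log2 CPM most resembled the mean of the 9 centred profiles over the 6 libraries were Rab15 (Pearson r = 0.998), Sh3rf3 (0.996), Clstn2 (0.993), B3galt4 (0.992), Cebpa (0.991), Ptprj (0.988), Fndc1 (0.988) and Sipa1l1 (0.987), and most opposed were Aebp2 (-0.992), Mtfr1 (-0.992), Ptpn21 (-0.991) and Prss23 (-0.991). None of these is on the choroid plexus lists. The Rab GTPase gene Rab15 was at 27.2, 28.4 and 20.0 CPM in heterozygotes, against 30.0, 31.3 and 31.7 CPM in wt, with its lowest level in heterozygote replicate 3. Of 16699 genes ranked, 431 had r of 0.9 or more, the points share library and depth, and 6 libraries order many genes alike. Among the 9 themselves, Aqp1, Folr1 and Ttr followed the mean profile with r of 0.89, 0.799 and 0.773, while Clic6 did not (0.0218) and Otx2 ran against it (-0.745). Each gene is part of the mean it is set against, which raises its r by construction. F5, below the minimum level for this ranking, has no r but is part of the mean. The profiles were centred and not scaled, so genes that vary more weigh more in the mean, and F5 varied most (coefficient of variation 56.9%).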

How the data were processed

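Forebrain RNA of 3 Dyrk1a+/- and 3 wt embryos was sequenced. The authors deposited raw counts per Ensembl gene, 1 column per library. Per the submitters' processing notes bcl2fastq 2.17.1.14, HISAT2, SAMtools 1.9 and HTSeq 0.9.1 were used, with GRCm38/mm10; roles, annotation release and strand setting are unknown (not given in the sources used here). The labels' protocols name both polyadenylated RNA and a stranded total-RNA kit with ribosomal depletion.

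Symbols, places and exon lengths came from GENCODE M21 (GRCm38; 32888 of 33084 identifiers matched) and promoter windows from RefSeq (GRCm38.p6). In R 4.3.3, edgeR 4.0.16 kept 19403 genes by filterByExpr, scaled libraries by TMM (factors 0.994 to 1.00) and fitted genotype alone by quasi-likelihood, with Benjamini-Hochberg adjustment over all genes and a threshold of 0.05. Standard errors and 95% intervals come from the F statistic. CPM were also compared by exact 2-sided permutation. Likeness used log2(CPM + 0.5) of genes with a mean of at least 1 CPM. Alternatives were DESeq2 1.42.0, its size factors, no low-count filter, a replicate block, the pair as a term, leaving out each library and, added after the data were seen, the 4 other libraries alone and levels divided by Ttr.

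The 9 genes, the lists and the settings were chosen with earlier results of these data known. Text names the 9 genes, the 2 genes of lowest p in each list with all that passed, the 8 most and 4 least alike genes, and Dyrk1a, except a few that are not reported here; Kcne2, Slco1c1, Slc46a1, Slc19a1, Tmem72, Lmx1a, Tyr and genes named without values as examples of a list or as below the filter were added for their role. In simulated data the fit recovered 42% of 1.5-fold and 90% of 2-fold changes at an adjusted p under 0.05. Of 186 genes called there, 21 had no change set. Changes were set only in randomly drawn genes with higher mean counts than F5. Counts were drawn independently for each library, without the likeness within the pair, so these rates are not those of the 9 genes. No 2 libraries agreed within sampling noise (chi-square over degrees of freedom 4.55 to 29.7).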

Additional observations from a re-analysis of the deposited data

How the results depend on the processing

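None of the 9 genes was called under any alternative (108 refits, of which 100 kept the direction; the lowest edgeR adjusted p was 0.22). The sign turned for Enpp2 on the 4 other libraries alone (0.0036) and, as a difference per 1000 of Ttr, 0.674; causes were not tested. With 1 library left out log2 fold changes ran from -0.16 to 0.14 for Ttr, -0.45 to 0.079 for Kl, -0.28 to 0.11 for Folr1, -0.016 to 0.15 for Clic6, 0.12 to 0.27 for Otx2, -0.65 to -0.36 for Prlr, -1.82 to -0.91 for F5, -0.56 to -0.18 for Aqp1 and -0.15 to 0.011 for Enpp2. Over all genes 2 calls became 27 with DESeq2, 4 with no low-count filter, 6 with the pair (heterozygote replicate 2, wt replicate 3) as a term, 6 on the 4 others alone, and 0 to 5 with 1 library left out. The 1528 genes at an unadjusted p under 0.05 became 3037 with the pair term, 2492 on the 4 others alone and 812 to 2072 with 1 library left out. Of the 9 genes 2 (F5 and Prlr) were at an unadjusted p under 0.05, and 1 with DESeq2 (F5, which had no adjusted p there). With the pair term there were 3 (F5, Prlr and Aqp1), and on the 4 others alone also 3 (Kl, Prlr and Aqp1, without F5). There were 0 to 2 with 1 library left out, and not always the same genes.

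With replicate number as a block, edgeR called 0 genes, with 1110 at an unadjusted p under 0.05, and 1 of the 9 genes was at an unadjusted p under 0.05. The labels do not say that numbers pair the samples. Deviations of same-numbered samples from their group means correlated at 0.20, -0.32 and -0.16, and not every sample correlated best with its own number. The highest correlation, 0.45, was that of the pair. Whether same-numbered samples share a litter or a batch was not tested. F5 had 5 to 38 counts per library, and its coefficient of variation was 56.9%, where counting alone would give 21.7%.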

Other observations

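The genes around the choroid plexus at the dorsal midline were mostly at higher fitted levels in heterozygotes. Of 10 tested genes of the cortical hem and roof plate 9 were higher (median 0.21 on the log2 scale) beside 0.0048 over all genes tested; by edgeR 0 passed at an adjusted p under 0.05 and 0 were at an unadjusted p under 0.05. Wnt8b, a Wnt ligand of the medial pallium, was at 4.06, 6.08 and 6.51 CPM in heterozygotes, against 3.39, 3.61 and 4.91 CPM in wt (0.48; edgeR adjusted p = 0.647), and replicates 2 and 3 of the heterozygotes were above all wt libraries. Lmx1a was above all wt libraries in all 3 heterozygotes, as 6.53% of all genes tested were. Msx1 was the lower gene of the list (-0.18). Lmx1a, Bmp4 and Msx1 are also among the choroid plexus fate regulators counted above, so these lists are not separate sets of genes. This list too was chosen with earlier results of these data known.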
